A study of Homo sapiens with 6 samples.

Results

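The genes described here are 10 members of the S100 family of small calcium-binding proteins, S100A2, S100A4, S100A6, S100A8, S100A9, S100A10, S100A11, S100A14, S100A16 and S100P. They were found by symbol in a gene table of 36459 rows, which holds 25 symbols beginning with S100, pseudogenes included. PC9 is an established line from a human lung adenocarcinoma of the non-small cell type that depends on the EGFR kinase. RNA was sequenced in 3 parental PC9 libraries and in 3 libraries of PSPC9, the drug-tolerant persister cells left when PC9 had been kept for 6 days with the EGFR inhibitor erlotinib at 15 µM. The parental libraries came from independent cultures without the drug, and the persister libraries were pooled from several independent cultures. All 6 libraries are of 1 cell line, and erlotinib exposure and the persister state cannot be told apart, since every persister library had both. The question is which S100 mRNAs differ between the persister cells and the cells they came from.

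S100 proteins are EF-hand proteins that mostly act as dimers: calcium binding turns out a hydrophobic surface that docks onto other proteins, among them annexins, cytoskeletal proteins and transcription regulators. Some members are also released from cells and act on receptors such as AGER (RAGE) and TLR4. Most S100 genes stand together in the epidermal differentiation region of chromosome 1, and several of them are abundant in epithelia and in carcinomas.

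Of the 10 genes, 9 had enough reads to be tested, among 14626 genes tested in all. S100A8 had a single estimated count in the 6 libraries and was not tested. The gene counts summed to between 29476725 and 34893782 per library. Levels are given as CPM, the count relative to the library's total after scaling with edgeR's TMM method, or, where genes are compared with each other, as TPM, which also divides by transcript length. The defining epithelial markers were present in every library, with all 6 of EPCAM, CDH1, KRT8, KRT18, KRT19 and KRT7 detected and a summed level between 7519 and 8051 CPM in PC9 and between 5936 and 6298 CPM in PSPC9. Of these 6 genes 4 were lower and 2 higher in PSPC9.

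Promoter stretches of 250 bases directly before the main transcript start are shown for the members whose start sites or levels the results below turn on. S100A4 is the member with the largest fall and with counts assigned to a pair of annotated start sites. S100A9 and S100P share its TATA-type motif, S100A2 is the member with an AP-1-type motif, and S100A11 is a member that did not fall. They are RefSeq sequences of GRCh38.p14, written 5′ to 3′ on the strand of the gene, and the stretch before the second S100A4 start was read from the GRCh38 genome. Capitals mark the TATA-type motif TATAAA on either strand, and likewise the AP-1 type, written TGANTCA, and the letters of the GC box, GGGCGG.
S100A4 (chr1:153545807-153546056, minus strand): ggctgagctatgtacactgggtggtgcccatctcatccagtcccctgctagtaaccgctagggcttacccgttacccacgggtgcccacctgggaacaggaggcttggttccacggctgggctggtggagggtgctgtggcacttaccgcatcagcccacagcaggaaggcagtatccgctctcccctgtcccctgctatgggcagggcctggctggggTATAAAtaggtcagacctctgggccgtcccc
S100A4, second start (chr1:153545098-153545347, minus strand): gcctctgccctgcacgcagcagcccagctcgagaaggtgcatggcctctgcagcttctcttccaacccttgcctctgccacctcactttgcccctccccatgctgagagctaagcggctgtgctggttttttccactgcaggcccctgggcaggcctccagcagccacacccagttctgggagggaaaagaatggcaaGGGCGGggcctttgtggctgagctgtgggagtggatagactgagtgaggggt
S100A9 (chr1:153357604-153357853, plus strand): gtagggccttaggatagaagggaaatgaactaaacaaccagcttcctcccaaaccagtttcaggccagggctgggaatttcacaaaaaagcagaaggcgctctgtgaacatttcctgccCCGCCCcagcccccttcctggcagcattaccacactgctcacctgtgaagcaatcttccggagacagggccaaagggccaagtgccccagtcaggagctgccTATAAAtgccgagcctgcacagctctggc
S100P (chr4:6693628-6693877, plus strand): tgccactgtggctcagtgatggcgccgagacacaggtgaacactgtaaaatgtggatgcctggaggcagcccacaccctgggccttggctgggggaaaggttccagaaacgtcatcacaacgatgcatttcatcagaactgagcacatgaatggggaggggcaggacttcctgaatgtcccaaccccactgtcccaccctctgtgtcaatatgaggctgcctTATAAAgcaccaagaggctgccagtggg
S100A2 (chr1:153565845-153566094, minus strand): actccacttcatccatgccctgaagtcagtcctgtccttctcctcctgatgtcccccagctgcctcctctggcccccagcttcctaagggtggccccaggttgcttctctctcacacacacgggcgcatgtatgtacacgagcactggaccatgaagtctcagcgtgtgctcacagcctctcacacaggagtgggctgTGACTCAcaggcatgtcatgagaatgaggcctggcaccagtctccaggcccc
S100A11 (chr1:152037005-152037254, minus strand): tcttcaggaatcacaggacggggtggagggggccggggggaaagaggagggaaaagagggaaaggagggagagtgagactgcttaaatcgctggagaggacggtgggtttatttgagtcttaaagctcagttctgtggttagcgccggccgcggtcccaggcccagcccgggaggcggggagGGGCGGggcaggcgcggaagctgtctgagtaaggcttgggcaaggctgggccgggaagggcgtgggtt

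The letters TATAAA stood in 4 of the 10 member promoters, those of S100A4, S100A8, S100A9 and S100P, against 10.7% of 35116 promoters of the same length. In these 4 the first base of the motif lay 31, 29, 29 and 28 bases before the start. The GC box stood in 4, those of S100A6, S100A9, S100A10 and S100A11, against 42.6% of all promoters. TGANTCA stood in S100A2 (6.57% of all promoters), GGAATG, the TEAD type, in S100A16 (11.9%), TTNNGCAA, a C/EBP type, in S100A11 (9.05%), and TTCNNNGAA, the STAT type, in 0 members (6.57%). These are matches of letters in this window and not measured sites. The 250 bases before the second S100A4 start lie inside intron 1 of the transcript S100A4-204 and hold a GC box but neither TATAAA nor TGANTCA.

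In PSPC9 the S100 genes were mostly lower. Of the 9 tested members 7 fell and 0 rose past the limit, an adjusted p-value under 0.01 in edgeR's quasi-likelihood test, and 2 did not pass. Over all tested genes 28.1% fell, 28.7% rose and 56.8% changed in either direction. The median log2 fold change of the 9 members was -0.97, beside -0.0061 for all tested genes. S100A4, S100A6, S100A2 and S100A9 fell by more than 2-fold, which 5.91% of all tested genes did. For each of the 7 members that fell, all 3 PSPC9 libraries lay below all 3 PC9 libraries, as they did for 35.7% of all tested genes. Taken as a share of all gene counts, the 10 members made up 0.202% ± 0.00253 (SD, n = 3) of the PC9 libraries and 0.129% ± 0.00615 (SD, n = 3) of the PSPC9 libraries. In bulk RNA a lower mean level per cell and fewer cells that express a gene cannot be told apart.

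**Figure D1:**
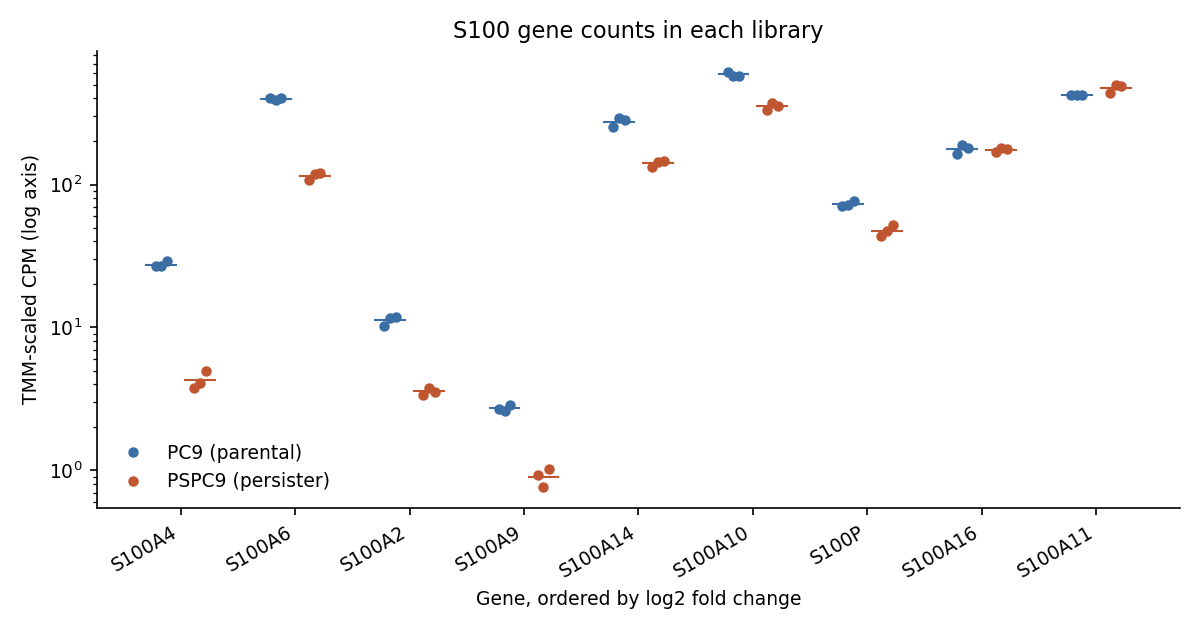
TMM-scaled CPM of the 9 tested S100 genes in each library on a log axis, with PC9 (parental) in blue and PSPC9 (persister) in orange; horizontal lines are means of 3 libraries. The 3 PSPC9 points of S100A4 lie between 3.80 and 4.98 CPM, far below its PC9 points, while the points of S100A16 overlap.

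S100A4, known as metastasin and a binder of non-muscle myosin IIA, fell most among the members. S100A4 (ENSG00000196154.12, minus strand, chr1:153543613-153550136) had 26.7, 26.7 and 29.3 CPM in PC9 replicates 1 to 3 and 3.80, 4.10 and 4.98 CPM in PSPC9 replicates 1 to 3. The PSPC9 level was 15.7% of the PC9 level, a log2 fold change of -2.67 (standard error 0.0910, edgeR adjusted p = 1.31e-09). Only 0.718% of the tested genes had a lower log2 fold change. MYH9, the heavy chain of the myosin that S100A4 binds, moved the other way, from a mean of 1406 to 3670 CPM (log2 fold change 1.38, edgeR adjusted p = 4.74e-10).

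S100A6, or calcyclin, binds the ubiquitin ligase adaptor CACYBP and several annexins. S100A6 (ENSG00000197956.10, minus strand, chr1:153534599-153536244) had 402, 392 and 404 CPM in the PC9 libraries and 107, 118 and 121 CPM in the PSPC9 libraries. The replicates of each condition lay close together, and the groups were well apart. The fall was 3.46-fold (log2 fold change -1.79, standard error 0.0476, edgeR adjusted p = 2.35e-10), and S100A6 ranked 85 of all tested genes by p-value. Its partner CACYBP had 129.6 CPM in PC9 and 138 CPM in PSPC9, and did not pass the limit (edgeR adjusted p = 0.0682).

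S100A2, a mainly nuclear S100 protein of epithelial cells, fell from 10.2, 11.6 and 11.9 CPM in PC9 to 3.39, 3.78 and 3.54 CPM in PSPC9. For S100A2 (ENSG00000196754.13, minus strand, chr1:153561108-153567890) this made a log2 fold change of -1.65 with a standard error of 0.0964 (edgeR adjusted p = 8.38e-08).

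S100A8 and S100A9 form the heterodimer calprotectin, which is abundant in neutrophils and monocytes and is induced in inflamed epithelium. S100A9 (ENSG00000163220.11, plus strand, chr1:153357854-153361023) was expressed at a low level, with 93, 89 and 96 estimated counts in the PC9 libraries and 27, 24 and 35 in the PSPC9 libraries. In CPM these were 2.70, 2.61 and 2.85 against 0.925, 0.762 and 1.02, a log2 fold change of -1.58 (standard error 0.171, edgeR adjusted p = 1.06e-05). S100A8 (ENSG00000143546.10, minus strand, chr1:153390032-153391073) had 1 count in PC9 replicate 3 and 0 in the other libraries. A count of 0 allows up to 3 counts, which is between 0.0860 and 0.102 CPM in these libraries, counting error only. The partner in calprotectin was therefore at or near the detection limit in both conditions.

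Markers of myeloid cells moved in the same direction as S100A9 in their sum. The 10 myeloid markers summed to between 76.6 and 78.0 CPM in PC9 and between 30.8 and 34.3 CPM in PSPC9, and most of this was CD68, a lysosomal protein, at 74.8 and 21.1 CPM. The integrin gene ITGAM rose from 1.20 to 10.7 CPM. FCGR3B, MPO and TYROBP were at 0 in all 6 libraries, and 4 of the 10 markers were tested, of which 1 was lower, 1 higher and 2 not past the limit. Their part in the S100A9 result was not tested. Of the receptors for released S100 proteins 5 were tested, 2 were lower, 0 higher and 3 not past the limit. BSG had the highest level of the 5, with 582 CPM in PC9 and 623 CPM in PSPC9 (edgeR adjusted p = 0.0496). AGER had 1.91 CPM in PC9 and 1.37 CPM in PSPC9 (edgeR adjusted p = 0.0620), TLR4 fell from 0.646 to 0.136 CPM (edgeR adjusted p = 0.000176), and ALCAM, an adhesion molecule reported to bind S100B, fell from 345 to 239.6 CPM.

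S100A10, also called p11, does not bind calcium and forms a tetramer with annexin A2 that holds plasminogen and its activators at the cell surface. S100A10 (ENSG00000197747.9, minus strand, chr1:151982915-151993859) had 617, 578 and 571 CPM in PC9 and 333, 369 and 353 CPM in PSPC9. The fall to 59.7% was smaller than those of S100A4 and S100A6 but well outside the replicate spread (log2 fold change -0.74, standard error 0.0458, edgeR adjusted p = 1.29e-07). ANXA2 rose from 1478 to 1914 CPM (log2 fold change 0.37, edgeR adjusted p = 2.92e-06).

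S100A11, or calgizzarin, pairs with annexin A1. S100A11 (ENSG00000163191.6, minus strand, chr1:152032506-152047907) had 421, 426 and 425 CPM in PC9 and 434, 495 and 485 CPM in PSPC9. All PSPC9 libraries were above all PC9 libraries, yet the difference was small and missed the limit (log2 fold change 0.15, standard error 0.0475, edgeR adjusted p = 0.0144). It passed without PSPC9 replicate 1 (log2 fold change 0.21, edgeR adjusted p = 0.000612), and with a trend on transcript length removed it was 0.34. ANXA1 fell from 759 to 308 CPM (log2 fold change -1.30, edgeR adjusted p = 2.33e-10).

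S100A14 and S100A16 are neighbours on chromosome 1, and both are expressed in epithelial cells. S100A14 (ENSG00000189334.9, minus strand, chr1:153614255-153616986) fell from 252, 294 and 281 CPM in PC9 to 132, 144 and 145 CPM in PSPC9, a log2 fold change of -0.97 (standard error 0.0593, edgeR adjusted p = 1.18e-07). S100A16 (ENSG00000188643.11, minus strand, chr1:153606886-153613145) had 165, 189 and 180 CPM in PC9 and 170, 179 and 178 CPM in PSPC9. Its libraries overlapped between conditions, and the log2 fold change was -0.018, smaller than its standard error of 0.0508 (edgeR adjusted p = 0.767). With the transcript-length trend removed it was 0.12.

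S100P is the listed member outside chromosome 1 and is known for binding ezrin and IQGAP1 in carcinoma cells. S100P (ENSG00000163993.7, plus strand, chr4:6693878-6697170) had 70.5, 72.2 and 76.3 CPM in PC9 and 43.6, 47.1 and 52.1 CPM in PSPC9, a log2 fold change of -0.62 (standard error 0.0621, edgeR adjusted p = 6.42e-06). Among its partners EZR fell slightly, from 439 to 397 CPM (log2 fold change -0.14, edgeR adjusted p = 0.00555), and IQGAP1, with 456 and 429 CPM, did not pass (edgeR adjusted p = 0.0706). S100PBP, which encodes a binding protein of S100P, fell from 24.8 to 20.5 CPM.

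**Figure D2:**
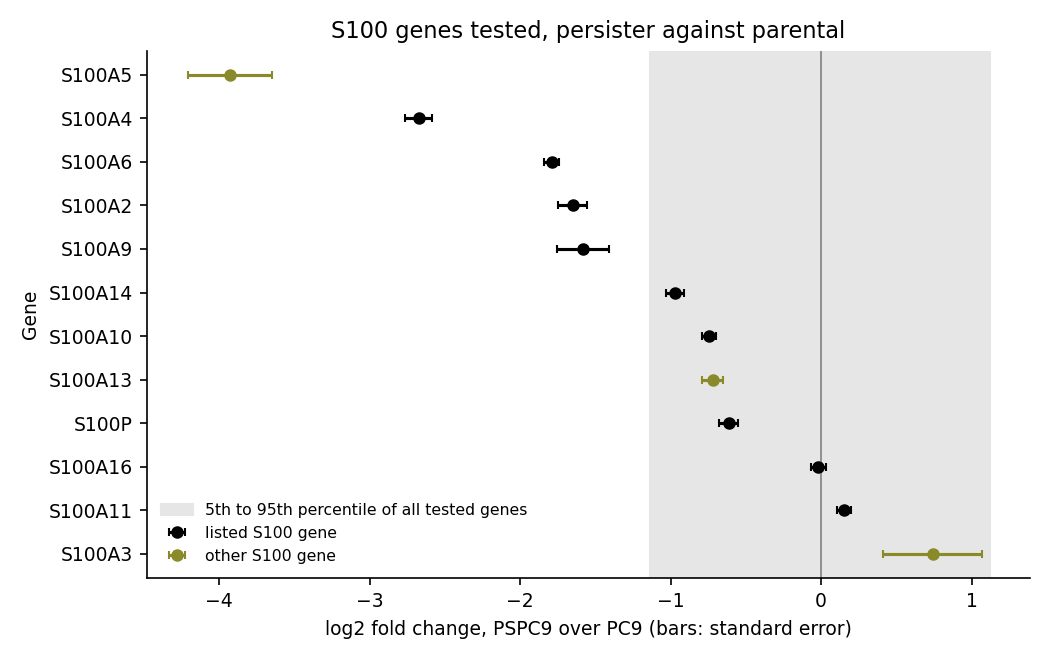
Log2 fold change of PSPC9 over PC9 for the 12 tested S100 genes, with standard errors as bars; black points are the listed genes, olive points the other S100 genes, and the grey band runs from the 5th percentile (-1.14) to the 95th percentile (1.12) of all tested genes. S100A5 and, among the listed genes, S100A4, S100A6, S100A2 and S100A9 lie below the band, and S100A11 and S100A16 lie near 0.

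The members' transcripts are short, with a mean length between 440 and 1135 bases where the median of tested genes was 2831, and across all tested genes shorter genes had lower log2 fold changes. At the members' lengths this trend was between -0.13 and -0.20, smaller in size than the change of any member that fell, and with it removed the 7 falls ran from -0.42 for S100P to -2.49 for S100A4. PSPC9 replicate 1, the library with the fewest counts, had the lowest level of its condition for 8 of the 9 tested members, while PC9 replicate 1, which had the most counts of its condition, had the lowest level for 6. Each of the 7 falls passed the limit without either library.

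Among the S100 genes that are not listed, 3 were tested. S100A13, a partner in the release of FGF1, fell from 36.8, 34.5 and 33.0 CPM in PC9 to 19.0, 21.6 and 22.6 CPM in PSPC9 (log2 fold change -0.72, standard error 0.0693, edgeR adjusted p = 4.37e-06). S100A5 fell from 73, 82 and 64 estimated counts to 5, 5 and 3 (log2 fold change -3.93, edgeR adjusted p = 4.22e-07). It lies between S100A6 and S100A4, and its level in PC9 was 2.14 ± 0.255 CPM (SD, n = 3). S100A3 had 0.353 ± 0.0788 CPM in PC9 and 0.594 ± 0.171 CPM in PSPC9, with overlapping groups (edgeR adjusted p = 0.0660). S100A13 overlaps S100A1 on the opposite strand and S100A3 lies within the annotated interval of S100A4, and whether strand was used in counting is not given in the sources used here. S100A1 itself had 5, 5 and 6 counts in the PC9 libraries.

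Per unit of transcript length, the S100 genes kept a wide range of levels, and their order changed at the top. In PC9 S100A6 came first with 1736 ± 26.1 TPM (SD, n = 3), followed by S100A10 with 1670 ± 42.2 TPM, and the libraries of these neighbours overlapped. S100A11 followed with 1434 ± 34.2 TPM, then S100A14 with 496 ± 47.8 TPM, and S100A16 (300.4 ± 26.5 TPM) and S100P (295 ± 15.4 TPM), which overlapped. At the low end were S100A4 with 95.5 ± 5.37 TPM, S100A2 with 33.3 ± 3.16 TPM and S100A9 with 9.05 ± 0.416 TPM.

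In PSPC9 S100A11 came first with 1651 ± 73.8 TPM (SD, n = 3), then S100A10 with 1035 ± 26.9 TPM and S100A6 with 518 ± 22.3 TPM. They were followed by S100A16 (308 ± 0.415 TPM), S100A14 (261 ± 8.28 TPM) and S100P (199 ± 15.1 TPM). S100A4 had 14.5 ± 1.87 TPM, S100A2 9.98 ± 1.11 TPM and S100A9 3.12 ± 0.487 TPM. No neighbours in this order overlapped. S100A6 thus stood at rank 90 of all genes by TPM in PC9 and at rank 249 in PSPC9, while S100A11 stood at rank 107 and then 71. Full annotated lengths were used, which understates the TPM of short transcripts.

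The transcript table divides each gene's counts among annotated transcripts. Of the members' transcripts 25 were tested, 10 fell, 0 rose and 15 did not pass the limit. Over all 54499 tested transcripts 3.91% fell and 3.89% rose. These were not matched to the members' transcripts by level, and S100A10-202 and S100A6-201 had 596 and 395 CPM in PC9. The number of member transcripts that fell depended on the settings. With all libraries 13 fell with DESeq2, while in edgeR 4 fell without PC9 replicate 1, 5 without PC9 replicate 2, 4 without PC9 replicate 3, 4 without PSPC9 replicate 1, 6 without PSPC9 replicate 2 and 5 without PSPC9 replicate 3. The transcripts S100A4-204, S100A6-201, S100A10-202 and S100A14-201 passed in all 6 of these fits with a library left out, and each of the other 6 in at most 1. For most members a single transcript carried nearly all counts in both conditions. S100A6-201 held 97.6% of S100A6 in PC9 and 96.6% in PSPC9, S100A10-202 held 99.8% and 99.9%, S100A11-201 held 99.9% in both, and S100P-201 held 99.9% and 100%. S100A14-201 held 92.5% and 93.0%, and S100A16-204 held 83.9% and 82.1%.

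S100A4 and S100A2 used several transcripts. For S100A4 the transcripts fall into 2 groups by their annotated start, the first at position 153545806 and the second 709 bases downstream, in intron 1 of the first. The grouping was made after the values were seen. The transcripts from the first start had 590, 632 and 610 counts in PC9 and 27, 42 and 49 in PSPC9, and those from the second start had 329, 278 and 376 in PC9 and 84, 87 and 122 in PSPC9. Both groups were lower in PSPC9, the first 15.1-fold and the second 3.25-fold relative to the library total.

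Most S100A4 counts were assigned by Kallisto to transcripts of the first start in PC9 and of the second start in PSPC9. The share of S100A4 counts from the first start was 64.2%, 69.5% and 61.9% in the PC9 libraries and 24.3%, 32.6% and 28.7% in the PSPC9 libraries. The groups did not overlap (exact permutation test, two-sided p = 0.1, the smallest that 3 against 3 allows). S100A4-204, the main transcript of the first start and the one whose promoter is printed above with TATAAA, fell from 17.3 to 1.14 CPM (log2 fold change -3.92, standard error 0.162, edgeR adjusted p = 8.59e-05). S100A4-203, the main transcript of the second start, fell from 6.09 to 2.18 CPM (log2 fold change -1.48, standard error 0.202, edgeR adjusted p = 0.00572). S100A4-206, annotated without a defined coding sequence, fell from 3.68 to 0.882 CPM. S100A4-204 passed in all 10 alternative fits, S100A4-203 in 4 and S100A4-206 in 3. With a library left out, S100A4-203 passed in 1 of 6 fits and S100A4-206 in 0.

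Whether the proportions of S100A4 transcripts changed depended on the test. With the Simes method of diffSpliceDGE in edgeR, 0 of the 7 members with several tested transcripts passed, where 1.86% of 10545 genes did, and S100A4 had an adjusted p of 0.124. Unadjusted, 1 of the 7 members, S100A4, was under 0.05. With the gene-level F test of the same tool 1 member passed, S100A4 (adjusted p = 0.000827), where 4.02% of genes did. The uncertainty of how Kallisto divided reads between these transcripts enters neither test.

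**Figure D3:**
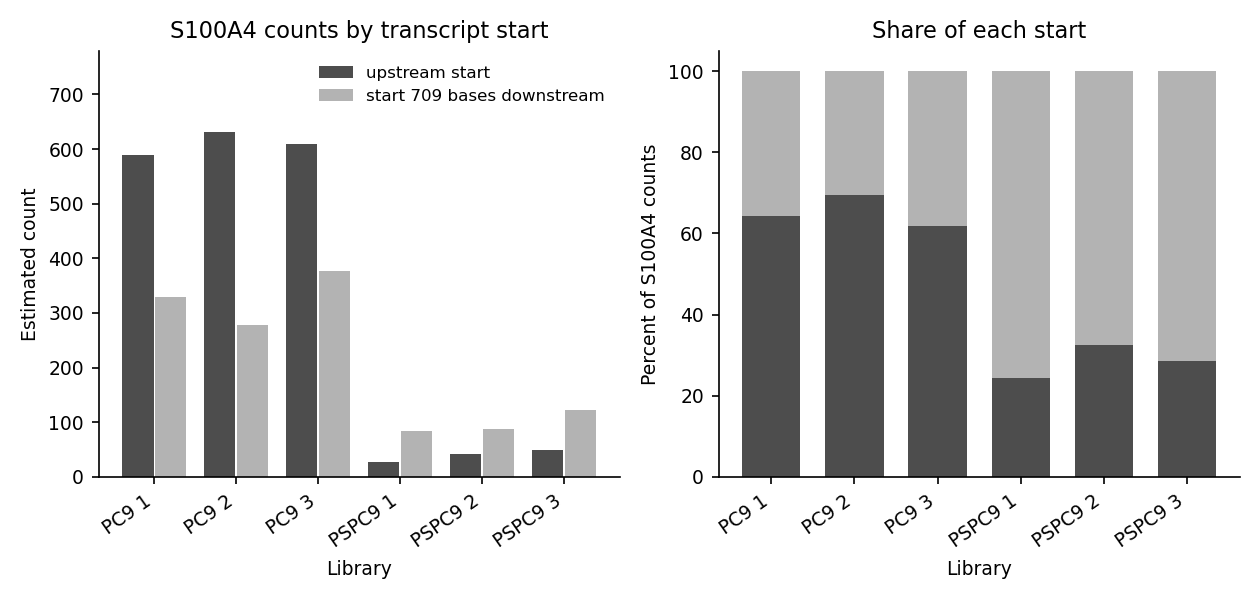
Estimated counts of S100A4 transcripts in each library by their annotated start (left) and the share of each start in S100A4 counts (right); dark bars are the upstream start, light bars the start 709 bases downstream. The upstream start holds between 61.9% and 69.5% of the counts in PC9 and between 24.3% and 32.6% in PSPC9.

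S100A2 counts were spread over more starts. S100A2-202 fell from 171, 213 and 186 counts to 67, 65 and 80 (log2 fold change -1.35, edgeR adjusted p = 0.00439), and passed in 3 of 10 alternative fits and in 0 of the 6 with a library left out, where its adjusted p in edgeR ran from 0.0110 to 0.0249. S100A2-204, which starts 2046 bases further upstream, had 129, 129 and 150 counts in PC9 and 0, 29 and 1 in PSPC9. PSPC9 replicate 2 stood apart from replicates 1 and 3, and the transcript did not pass (log2 fold change -3.67, standard error 1.36, edgeR adjusted p = 0.138). S100A2-203 had 0, 14 and 0 counts in PC9 and 21, 23 and 28 in PSPC9 (edgeR adjusted p = 0.353). For S100A2 as a whole the change in proportions had a Simes adjusted p of 0.817 and an F adjusted p of 0.156.

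The neighbours of the S100 genes on chromosomes 1 and 4 moved both ways. The tested genes within 100 kb of a member that are not S100 genes numbered 12. Of these 3 fell, 5 rose and 4 did not pass, with a median log2 fold change of 0.022. Over all tested genes 28.1% fell and 28.7% rose. Near S100A10, THEM4 fell (log2 fold change -0.75), while beside S100A11 TCHHL1 and TCHH rose (2.93 and 2.41, edgeR adjusted p = 4.57e-05 and 8.63e-06) from means of 0.0977 and 0.235 CPM. These are fused S100 genes, whose products join an S100 domain to long repeats and are known from hair follicle and epidermis. Beyond S100A13, CHTOP (-0.072), SNAPIN (0.12) and NPR1 (-1.16) did not pass, and ILF2 rose (0.25).

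Among the tested genes from S100A6 to S100A13, every gene past the limit fell. This stretch was not set in advance, and both its ends are genes that fell. It can therefore not be weighed against the 28.1% of all tested genes that fell. S100A6, S100A5, S100A4, S100A2, S100A14 and S100A13 fell, and S100A3 and S100A16, which lie among them, did not pass the limit. Of those that fell, S100A6, S100A4, S100A2 and S100A14 are members already counted above. S100A16 and S100A14, adjacent genes on the same strand, had log2 fold changes of -0.018 and -0.97. Around S100P on chromosome 4 MAN2B2 and MRFAP1 rose (0.99 and 0.13), MRFAP1L1 and BLOC1S4 fell (-0.26 and -0.81), and KIAA0232 did not pass (-0.074).

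**Figure D4:**
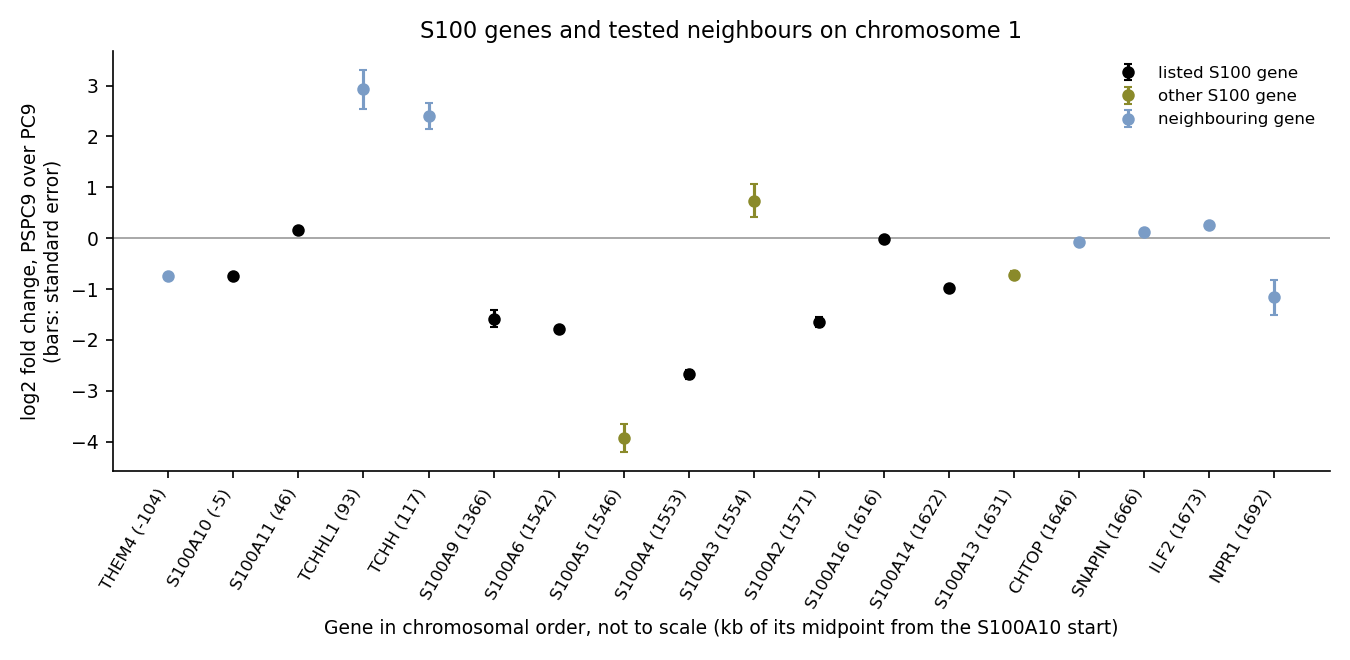
Log2 fold change of PSPC9 over PC9 for the tested genes within 100 kb of the members on chromosome 1, in chromosomal order and not to scale, with standard errors as bars. Black points are listed S100 genes, olive points other S100 genes and blue points their neighbours. S100A5 and S100A4 are lowest at -3.93 and -2.67, and TCHHL1 and TCHH are highest at 2.93 and 2.41.

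The genes of S100 partners moved both ways. In 4 lists of annexins, intracellular partners, receptors and plasminogen activation genes 41 genes were tested, of which 16 fell and 12 rose. Over all tested genes 28.1% fell, 28.7% rose and 56.8% changed in either direction. Of the 12 tested annexins, calcium-dependent membrane binders, 5 fell and 7 rose. ANXA1 and ANXA9 fell (log2 fold changes -1.30 and -0.94), as did ANXA4 (-0.29) and ANXA11 (-0.24), the latter a partner of S100A6. ANXA8L1 (1.24), ANXA6 (0.94), ANXA8 (0.88) and ANXA3 (0.49) rose. ANXA8 and ANXA8L1 are near-identical copies that share reads, so how their counts divide is uncertain.

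Of the 16 intracellular partners 6 fell, 3 rose and 7 did not pass. MYH9 (1.38), AHNAK (0.39), a large scaffold held by the S100A10 and annexin A2 complex, and PPFIBP1 (0.26), or liprin beta 1, an S100A4 partner, rose. DLC1 (-0.68), whose product S100A10 binds, fell, as did S100PBP (-0.28), HLTF (-0.21) and SUGT1 (-0.19).

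In the plasminogen system that S100A10 serves, 3 of 8 tested genes fell, 2 rose and 3 did not pass. The activator genes PLAT, or tissue plasminogen activator, and PLAU, or urokinase, fell from 45.6 to 6.61 CPM and from 156 to 86.5 CPM (edgeR adjusted p = 2.65e-11 and 8.70e-09). SERPINE2, the gene of an inhibitor of both activators, fell slightly (-0.15).

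Levels of S100 genes relative to the genes of their partners are given for 4 pairs, whose own changes stand above. The TPM ratio of S100A10 to ANXA2 was 0.930, 0.907 and 0.908 in PC9 and 0.407, 0.436 and 0.421 in PSPC9. The ratio of S100A11 to ANXA1 went the other way, from 1.38 ± 0.0404 to 3.79 ± 0.332 (SD, n = 3). S100A6 to CACYBP went from 9.48 ± 0.329 to 2.53 ± 0.106, and S100A4 to MYH9 from 0.263 ± 0.0186 to 0.0148 ± 0.00193. These are ratios of mRNA and not of protein.

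**Figure D5:**
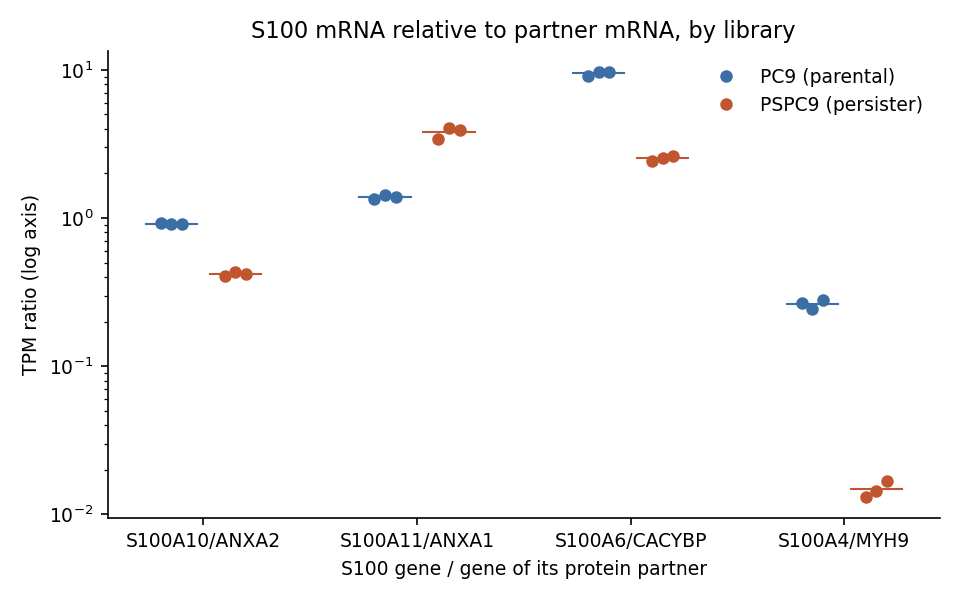
Ratio of TPM between an S100 gene and the gene of a protein it binds, for each library on a log axis, with PC9 in blue and PSPC9 in orange and lines at the means of 3 libraries. The ratios of S100A10, S100A6 and S100A4 to their partners are lower in PSPC9, and that of S100A11 to ANXA1 is higher.

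Among other EF-hand genes changes went both ways. Of 27 tested, among them calmodulins, reticulocalbins, plastins and actinins, 11 fell, 8 rose and 8 did not pass. Their median log2 fold change was -0.032. Over all tested genes 28.1% fell and 28.7% rose. EFHD2 (-0.80), PLS1 (-0.61), CETN3 (-0.57) and CIB1 (-0.56) fell, and EFHD1 (1.25), ACTN1 (0.85), CALU (0.70) and PLS3 (0.41) rose. Of 6 tested genes of the epidermal cornified envelope, some of which lie in the same region of chromosome 1, 2 fell and 3 rose. IVL and TGM1, which encode involucrin and transglutaminase 1, rose from 0.999 to 5.61 CPM and from 2.26 to 11.9 CPM.

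Among 15 tested genes of transcription factors that have been reported upstream of S100 genes, 5 fell, 5 rose and 5 did not pass. TP63, the gene of a regulator of stratified epithelia, with a mean of 3.91 CPM in PC9 and 0.401 CPM in PSPC9, had the largest change (-3.27, edgeR adjusted p = 6.01e-08). CEBPD (-1.10), KLF5 (-0.62), TCF7L2 (-0.27) and CTNNB1 (-0.13) fell as well. NFKB1 (0.73), STAT3 (0.41), KLF4 (0.36), HIF1A (0.27) and RELA (0.21) rose.

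Markers of other cell types were low. Of the lymphoid markers 0 of 5 had enough counts to be tested, and their sum was at most 0.203 CPM. The fibroblast markers summed to between 10.43 and 11.02 CPM in PC9 and between 27.4 and 30.8 CPM in PSPC9, almost all of it COL1A1, with 0 counts of COL3A1. The endothelial markers summed to between 8.19 and 8.88 CPM and between 3.60 and 4.04 CPM. Their part in the S100 results was not tested.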

How the data were processed

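RNA was measured in 6 libraries of PC9 cells, 3 parental and 3 persister, grouped by the sample labels, with the dose and culture details from the paper. The authors prepared poly-A libraries and quantified them with Kallisto 0.46.1 against Ensembl transcripts of GRCh38.p13. They deposited whole-number estimated counts per gene symbol and per transcript, without normalization. Replicates of one condition differed by more than sampling noise (chi-square per degree of freedom from 3.41 to 20.0), and p-values measure the spread between these libraries.

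Genes passing filterByExpr (minimum count 10) were scaled with TMM and tested with glmQLFTest in edgeR 4.0.16 (R 4.3.3), two-sided, with Benjamini-Hochberg adjustment over all genes and a limit of 0.01, as in the study. The study's Sleuth test, with a second laboratory as batch, was not used here. The standard error is the log2 fold change divided by the square root of F. Transcripts were tested alike, and usage with diffSpliceDGE. The steps were tested on simulated counts, with 200 genes or transcripts changed by a log2 fold change of 1 in size. Of these, 99.5% of the genes and 97.5% of the transcripts were recovered. Far fewer genes changed there than in these data, genes and transcripts with few counts were not among those changed, and read assignment was not simulated. Every simulated gene and transcript had the same variability between replicates beyond counting noise. These shares therefore do not measure recovery in these data. Of 36459 symbols 27685 matched GENCODE 44 by current and 651 by older symbol. Promoters were matched by symbol, with RefSeq starts within 100 bases of the main transcript start for all 10 members.

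All 10 members were named. Of other lists, named genes were at most 4 past the limit in each direction with the largest change and at least 5 CPM in 1 condition, plus known partners and genes within 100 kb. Genes given outside this rule (TP63, RELA, BSG, S100A1 and markers with few counts) were chosen after their values were seen. Some genes that the rule selects are not reported here. Members and lists were chosen with earlier results of these data known. Alternatives were DESeq2 1.42.0, limma 3.58.1 voom, other normalizations and filters, a replicate block, removal of the transcript-length trend (loess, span 0.5), gene counts summed from transcripts, other limits, and each library left out.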

Additional observations from a re-analysis of the deposited data

How the results depend on the processing

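The 7 members that fell kept their direction and passed the limit in each of 17 refits (other tools, scalings, filters, the replicate block, the length trend removed, counts summed from transcripts, each library left out). With a fold change above 2 also required, 4 members, 1 of the other S100 genes and 8 of the partner genes passed. The changed members numbered between 7 and 8 with a library left out, where the eighth was S100A11, which rose. S100A11 passed in 6 refits, DESeq2 (0.16), no filter (0.16), the replicate block (0.15), the length trend removed (0.34), both together (0.34) and without PSPC9 replicate 1 (0.21), and its adjusted p ran from 1.67e-05 to 0.0716. S100A16 turned positive with the length trend removed, alone (0.12) or together with the replicate block (0.12). The replicate block alone gave -0.017, and the fits with a library left out ran from -0.071 to 0.028. The adjusted p of S100A16 ran from 0.0143 to 0.924. The partner genes changed numbered between 20 and 29 with a library left out. Member transcripts changed numbered 3 with the replicate block, 13 with DESeq2 and between 4 and 6 with a library left out, against 10. Transcript usage passed for 1 member with the gene-level F test and 0 otherwise. The share of counts on the members in PC9 was 0.198% with TMM-scaled CPM. Shares ranged from 0.200% to 0.203% in PC9 and from 0.127% to 0.132% in PSPC9 with a library left out. Whether the replicate numbers pair the libraries is not given by the labels. The deviations of same-numbered libraries correlated at 0.124, 0.0236 and 0.0215, and those of differently numbered ones between -0.117 and 0.0971. With 3 libraries per condition these values cannot decide it. The replicate block changed no other call among the members. Kallisto's uncertainty of read assignment entered no test, so S100A2 and S100A4 transcript counts are less certain than gene counts, and S100A8, S100A3 and S100A5 are limited by depth.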
